A study of Homo sapiens with 6 samples.

Results

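Autophagy and lysosome genes were examined in U251, an established human glioblastoma cell line, with and without forced expression of PD-L1. CD274 encodes PD-L1, which engages PD-1 on T cells and restrains them. The set holds 41 named genes out of 57773 in the count table, matched by gene symbol, and all 41 passed the low-count filter that left 15818 genes to test. Of these, 23 genes form the autophagosome machinery, 16 encode lysosomal membrane proteins, proton pump subunits and hydrolases, and TFEB and TFE3 are the transcription factors of the pathway. The PD-L1 group was U251 with a lentiviral PD-L1 construct, and the Vector group was U251 with the lentiviral vector alone, each a stable line. Each group had 3 dishes, harvested 12 h after passage in DMEM with 10% fetal bovine serum. Nothing in the labels describes starvation or a lysosomal inhibitor. All dishes of a group share 1 line, and p-values therefore reflect dish-to-dish spread alone, not that of independent transductions.

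Macroautophagy encloses cytoplasm in a growing membrane that closes into an autophagosome and then fuses with a lysosome. A kinase complex around ULK1 starts the process, a lipid kinase complex around BECN1 marks the membrane, and ubiquitin-like conjugation attaches ATG8 proteins such as MAP1LC3B to it. The lysosome supplies a membrane coated with LAMP glycoproteins, an acid interior made by the V-ATPase proton pump, and hydrolases such as cathepsins. TFEB and TFE3 are known to bind E-box sequences in promoters of lysosomal genes. Transcript levels do not measure autophagic flux or enzyme activity.

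CD274 had 26827, 22001 and 23046 reads in PD-L1 dishes 1 to 3, against 34, 71 and 41 reads in Vector dishes 1 to 3. The log2 fold change was 9.07 ± 0.18 (SE; edgeR quasi-likelihood adjusted p = 1.45e-12), while an exact two-sided permutation test on 3 against 3 dishes reached its lowest possible value, p = 0.1. Total counts ranged from 15678989 to 22270509 per dish. The 6 astroglial markers summed to 514 to 544 CPM (library-scaled counts, after TMM) in PD-L1 dishes and 481 to 497 CPM in Vector dishes, nearly all of it from GLUL, glutamine synthetase, at 504 ± 14.5 CPM in PD-L1 dishes and 465 ± 10.1 CPM in Vector dishes. S100B was under 1 CPM on average in both groups, and GFAP, the astrocyte filament protein, was low, at 1.70 ± 0.22 CPM in PD-L1 dishes and 3.18 ± 0.56 CPM in Vector dishes (SD, n = 3 each). PD-L1 dish 3 stood apart from the other PD-L1 dishes, with a chi-square of counts per degree of freedom of 16.1 against dish 1, while dishes 1 and 2 gave 3.04. Pairs of Vector dishes gave 5.27 to 10.0.

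Of the lysosomal genes that fell, the promoters of LAMP1, CTSA and CTSD are shown here. CTSB and PSAP also fell but had no promoter window. E-boxes are the known binding sequence of TFEB and TFE3, whose transcripts are among the 41 genes. Binding was not measured. The sequences are windows of 300 bases, with 250 before and 50 after the RefSeq start, on GRCh38.p14, written from the gene's own strand. Capitals mark the E-box core CACGTG.
LAMP1 (chr13:113296989-113297288, plus strand): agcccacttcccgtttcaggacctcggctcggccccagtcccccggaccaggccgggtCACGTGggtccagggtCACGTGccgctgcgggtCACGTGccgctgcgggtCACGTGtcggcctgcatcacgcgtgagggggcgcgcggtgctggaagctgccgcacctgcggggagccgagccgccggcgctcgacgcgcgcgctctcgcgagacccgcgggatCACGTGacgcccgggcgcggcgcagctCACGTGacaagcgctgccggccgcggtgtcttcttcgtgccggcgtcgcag
CTSA (chr20:45891085-45891384, plus strand): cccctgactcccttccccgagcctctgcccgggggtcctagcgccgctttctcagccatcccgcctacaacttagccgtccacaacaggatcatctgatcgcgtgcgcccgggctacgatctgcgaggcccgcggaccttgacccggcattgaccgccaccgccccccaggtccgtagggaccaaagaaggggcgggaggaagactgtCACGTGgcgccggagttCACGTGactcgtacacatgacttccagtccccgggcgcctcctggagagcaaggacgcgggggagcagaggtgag
CTSD (chr11:1763878-1764177, minus strand): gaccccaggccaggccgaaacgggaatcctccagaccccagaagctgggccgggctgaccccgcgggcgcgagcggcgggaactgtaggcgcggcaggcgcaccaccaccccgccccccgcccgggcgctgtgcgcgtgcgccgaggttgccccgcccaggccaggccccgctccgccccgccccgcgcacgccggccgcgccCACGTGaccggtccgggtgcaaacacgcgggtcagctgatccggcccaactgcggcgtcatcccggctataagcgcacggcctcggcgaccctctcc

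The LAMP1 window held 6 copies of the core, beginning 192, 176, 159, 142, 28 and 1 bases before the start. CTSA held 2 and CTSD 1. For members that did not pass the test, 1 match each is given as 30 bases around the core, to show the flanking letters; MCOLN1, GAA and ATG3 hold 2 matches, of which the longest form, or the first of equal ones, is shown.
MCOLN1 (chr19:7522598-7522627, plus strand): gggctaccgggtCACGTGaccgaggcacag
GAA (chr17:80101493-80101522, plus strand): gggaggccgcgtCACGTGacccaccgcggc
ATP6V0D1 (chr16:67481199-67481228, minus strand): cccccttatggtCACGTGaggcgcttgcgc
NEU1 (chr6:31862930-31862959, minus strand): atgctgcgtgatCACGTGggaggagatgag
ATG3 (chr3:112561940-112561969, minus strand): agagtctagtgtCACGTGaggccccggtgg
ATG14 (chr14:55411834-55411863, minus strand): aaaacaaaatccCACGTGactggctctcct

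Of the 41 genes, 33 had a promoter window. CACGTG was in 7 of 10 lysosomal genes and in 2 of 21 autophagosome genes, ATG3 and ATG14, against 8.77% of the 27305 genes with a window. In the 4 lists of further pathway genes given below the lysosomal share was smaller, with CACGTG in 11 of 38 other lysosomal genes. It was in 3 of 16 other proton pump genes, 4 of 28 other autophagy genes and 6 of 24 regulators. The longer form TCACGTGA was in 5 of 10 lysosomal genes (LAMP1, MCOLN1, ATP6V0D1, CTSA, GAA) and in 1 of 21 autophagosome genes, ATG3, against 1.18% of all genes. Among the further lists TCACGTGA was in 5 of 38 other lysosomal genes, 1 of 16 other proton pump genes, 1 of 28 other autophagy genes and 2 of 24 regulators. The CLEAR palindrome, which adds 1 more base at either end, was in GAA and MCOLN1, against 0.421% of all genes. Each motif reads the same on both strands, and each longer form contains the shorter ones. TFEB and TFE3 held none of these letters in their windows. E-boxes were already known in promoters of lysosomal genes, so their share among the lysosomal members adds no independent evidence. A match is a description of the letters, and MCOLN1, GAA, NEU1 and ATP6V0D1 hold one without passing the expression test. RB1CC1, UVRAG, LAMP2, ATP6V1A, ATP6V1H, CTSB, HEXA and PSAP had no window.

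**Figure D1:**
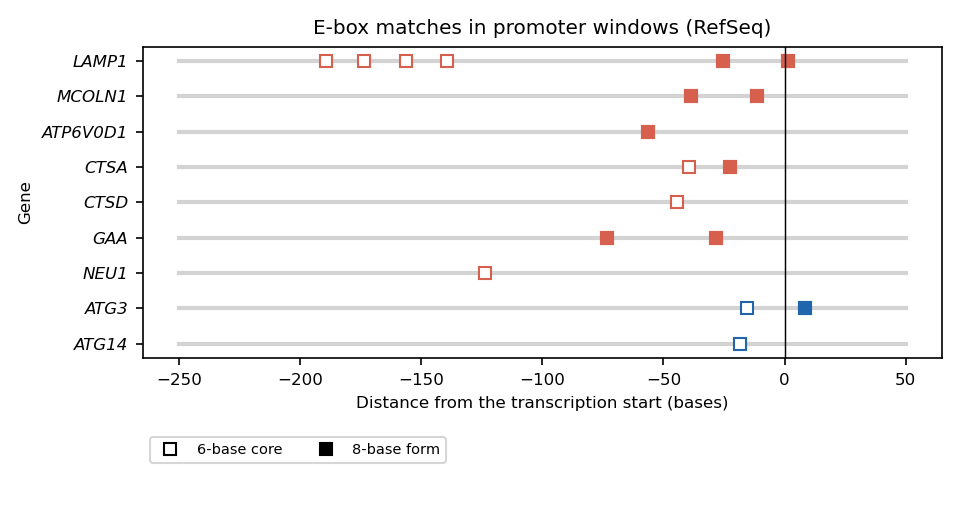
Positions of E-box matches in the promoter windows of the 9 members that hold one; the horizontal axis is the distance from the RefSeq transcription start in bases, the vertical axis the gene, open squares the 6-base core and filled squares the 8-base form (red, lysosomal genes; blue, autophagosome genes). LAMP1 holds 6 matches, and no other gene holds more than 2.

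LAMP1 and 4 of the 9 genes of the hydrolase group were lower in PD-L1 dishes, and the other 5 of that group did not pass the test. Of the 16 lysosomal genes, 5 fell at a false discovery rate (FDR) of 0.05, namely LAMP1, CTSA, CTSB, CTSD and PSAP, and 0 rose. Over all genes tested, 7.2% were lower and 1.55% higher, 8.75% in all. In the autophagosome machinery 0 of 23 genes were called by edgeR, 4 had an unadjusted p under 0.05, DESeq2 called 1 (ATG9A) and limma-voom 0. Of all 15818 genes tested, 3735 had an unadjusted edgeR p under 0.05, DESeq2 called 1443 and limma-voom 1367. The median log2 fold change was -0.15 for the lysosomal genes, 0.07 for the autophagosome genes and 0.02 for all genes tested. This contrast between the classes is a description of counts and medians, without a test.

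**Figure D2:**
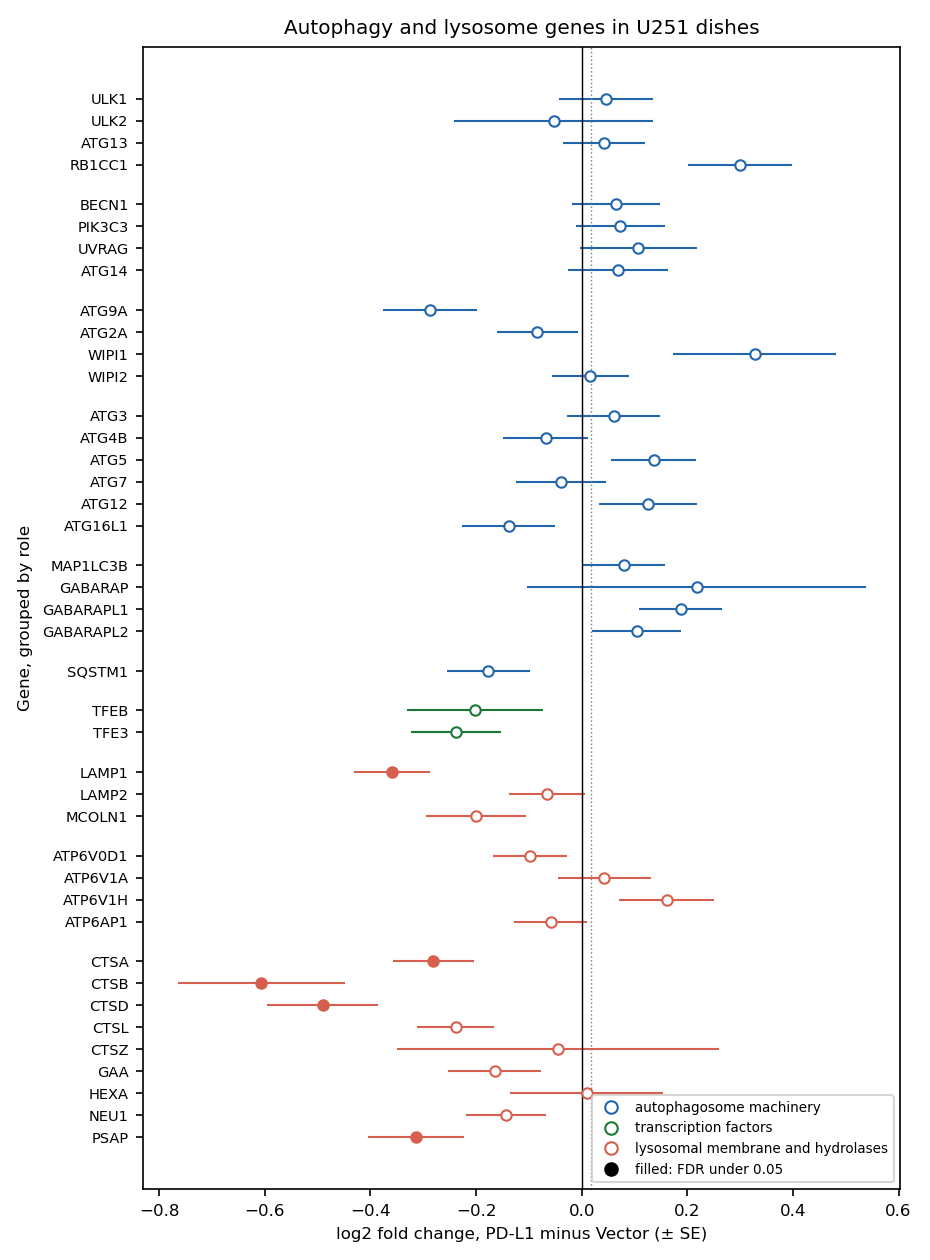
Log2 fold change (PD-L1 minus Vector, horizontal axis) of each of the 41 genes (vertical axis, grouped by role), with bars of 1 SE; filled points passed the FDR, and the dotted line is the median of all genes tested, 0.02. The filled points are LAMP1, CTSA, CTSB, CTSD and PSAP, from -0.61 to -0.28.

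LAMP1 (ENSG00000185896), the abundant glycoprotein of the lysosomal membrane, had 139.7, 142.5 and 139.8 CPM in PD-L1 dishes, against 186.1, 168.7 and 186.3 CPM in Vector dishes. Every PD-L1 dish lay below every Vector dish. The fold change was 1.28-fold lower (log2 -0.36 ± 0.07, adjusted p = 0.00734), and LAMP1 was called in all 17 alternative fits, with adjusted p from 2.51e-04 to 0.0458. The stricter test for a change beyond 1.2-fold called 0 of the 41 genes.
CTSD (ENSG00000117984), the aspartic protease cathepsin D, had 65.9, 71.1 and 79.0 CPM in PD-L1 dishes and 113.0, 84.8 and 105.6 CPM in Vector dishes. The groups did not overlap, with PD-L1 dish 3 and Vector dish 2 nearest to each other. The log2 fold change was -0.49 ± 0.10 (adjusted p = 0.0105). CTSD was called in 16 of 17 alternative fits, and without Vector dish 1 its adjusted p was 0.0766.

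CTSB (ENSG00000164733), the cysteine protease cathepsin B, had the largest decrease of the 41 genes in the main comparison. It had 335.8, 345.9 and 487.8 CPM in PD-L1 dishes, against 721.8, 524.4 and 534.2 CPM in Vector dishes. PD-L1 dish 3 was close to the lower Vector dishes, and Vector dish 1 stood above the rest. The log2 fold change was -0.61 ± 0.16 (1.52-fold lower, adjusted p = 0.0407). Dropping PD-L1 dish 1 gave CTSB an adjusted p of 0.147, dropping PD-L1 dish 2 gave 0.193 and dropping Vector dish 1 gave 0.126, and DESeq2 gave 0.0914 on all dishes.

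PSAP (ENSG00000197746), the precursor of the saposins that activate sphingolipid hydrolases, had 409.0, 449.3 and 494.7 CPM in PD-L1 dishes and 610.5, 511.2 and 559.5 CPM in Vector dishes. The dishes of the groups did not overlap, and the log2 fold change was -0.31 ± 0.09 (1.24-fold lower, adjusted p = 0.0471). With PD-L1 dish 1 or 2 dropped its adjusted p was 0.233 or 0.126, and with Vector dish 1 or 3 dropped it was 0.236 or 0.104. PSAP also lost its call with upper-quartile scaling (0.0667) and with the 5 CPM filter (0.0618).
CTSA (ENSG00000064601), the protective protein that stabilises lysosomal neuraminidase and beta-galactosidase, had 60.0, 59.1 and 58.4 CPM in PD-L1 dishes and 76.8, 69.0 and 69.9 CPM in Vector dishes. PD-L1 dishes lay close together and below the Vector dishes, with a log2 fold change of -0.28 ± 0.08 (adjusted p = 0.0361). Of the fits that drop 1 dish, only the one without PD-L1 dish 3 called CTSA. Dropping PD-L1 dish 1 or 2 gave 0.115 or 0.126, and dropping Vector dish 1, 2 or 3 gave 0.180, 0.0517 or 0.0750 (edgeR adjusted p). Upper-quartile scaling gave CTSA 0.0607. CTSA overlaps PLTP on the opposite strand in GENCODE 29, and the library kit does not mark strand. PLTP was at 50.1 CPM in PD-L1 dishes, with a log2 fold change of 0.06 (adjusted p = 0.712). Other members also overlap protein-coding genes on the opposite strand and carry the same limit. They are ATG13, BECN1, WIPI1, ATG3, ATG4B, ATG5, ATG7, ATG12, MAP1LC3B and SQSTM1. In the further lists NPC2, GALNS, PLBD2 and ACP2 do so too, among others.

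**Figure D3:**
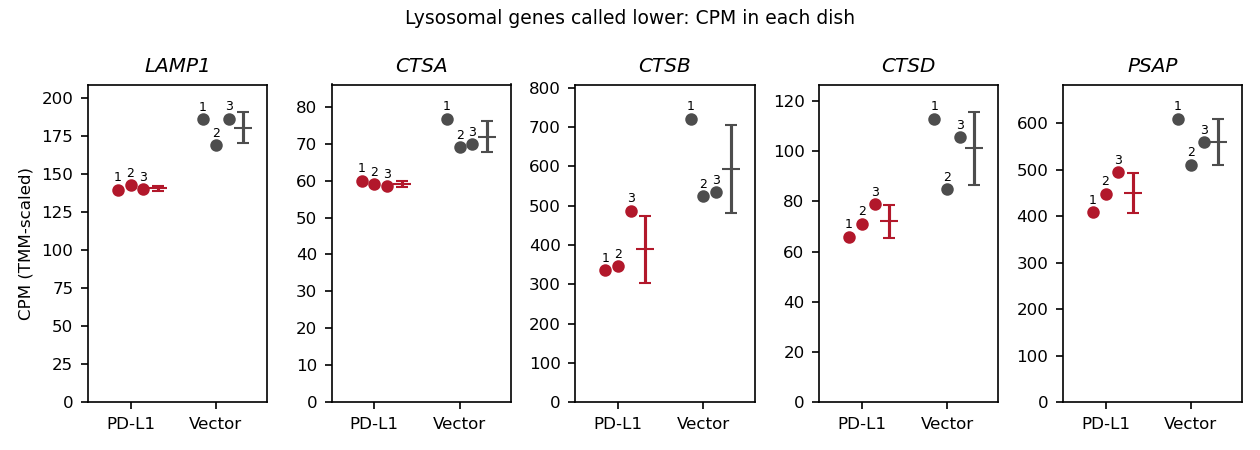
CPM (vertical axis, from 0) in each dish for the 5 lysosomal genes that fell; points are dishes, numbered, PD-L1 left and Vector right, and bars beside them give the mean and SD of 3 dishes. In each panel the 3 PD-L1 dishes lie below the 3 Vector dishes, and CTSB shows the widest spread, from 335.8 to 487.8 CPM among PD-L1 dishes.

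The remaining hydrolases did not pass in the main fit. CTSL, the cysteine protease cathepsin L, had 129.2, 125.6 and 139.7 CPM in PD-L1 dishes and 159.2, 155.2 and 151.1 CPM in Vector dishes, without overlap (log2 fold change -0.24 ± 0.07, adjusted p = 0.0575). CTSL was called in 1 of the 6 fits that drop 1 dish, that without PD-L1 dish 3 (adjusted p = 0.00297), and its adjusted p reached 0.234 in the others. In all, 5 of 17 alternative fits called CTSL lower, among them DESeq2 (adjusted p = 0.0443) and edgeR without the low-count filter (0.0491). The acid alpha-glucosidase GAA averaged 126 ± 11.9 CPM in PD-L1 dishes and 141 ± 11.4 CPM in Vector dishes, and the sialidase NEU1 63.2 ± 2.98 CPM and 69.8 ± 1.65 CPM in the same order. Their adjusted p were 0.278 and 0.270. CTSZ and HEXA, the alpha subunit of beta-hexosaminidase, were low, at 2.48 ± 0.97 and 6.84 ± 0.75 CPM in PD-L1 dishes and 2.54 ± 1.03 and 6.78 ± 0.80 CPM in Vector dishes.

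Among membrane proteins, LAMP2, the partner of LAMP1 in the lysosomal coat, was at 212.4, 214.0 and 193.3 CPM in PD-L1 dishes and 215.2, 213.1 and 220.4 CPM in Vector dishes (log2 fold change -0.07 ± 0.07, adjusted p = 0.618). The dishes overlapped. The lysosomal calcium channel MCOLN1 did not overlap between groups, with 16.0 ± 0.46 CPM in PD-L1 dishes and 18.4 ± 0.28 CPM in Vector dishes, but did not pass (adjusted p = 0.217). None of the 4 proton pump genes passed. The accessory subunit ATP6AP1, the most abundant of them, had 192.5, 200.9 and 193.9 CPM in PD-L1 dishes and 201.1, 199.2 and 211.3 CPM in Vector dishes (log2 fold change -0.06 ± 0.07, adjusted p = 0.653). ATP6V0D1, a subunit of the membrane sector, had a log2 fold change of -0.10 with no overlap between groups. ATP6V1A and ATP6V1H, subunits of the cytosolic sector, had log2 fold changes of 0.04 and 0.16. The proton pump genes thus had a median of -0.01 and the hydrolase group of 9 genes a median of -0.24. With GC and length offset the ATP6V0D1 and ATP6AP1 values turned to 0.01 and 0.03.

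Sums over the same counts show how much each class weighs; they are set mainly by abundant genes such as CTSB and PSAP and add no independent evidence. The 16 lysosomal genes summed to 2003, 2085 and 2254 CPM in PD-L1 dishes, against 2769, 2404 and 2541 CPM in Vector dishes. The 5 genes that fell made up 1010, 1068 and 1260 CPM of these sums in PD-L1 dishes and 1708, 1358 and 1455 CPM in Vector dishes. The 23 autophagosome genes summed to 1293, 1298 and 1312 CPM in PD-L1 dishes and 1289, 1312 and 1296 CPM in Vector dishes. Relative to the Vector mean, the lysosomal median was -0.24, -0.17 and -0.15 in PD-L1 dishes 1 to 3, and 0.04, -0.05 and 0.03 in Vector dishes 1 to 3. The autophagosome median was 0.08, 0.05 and 0.06 in PD-L1 dishes, and -0.03, 0.02 and 0.00 in Vector dishes.

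**Figure D4:**
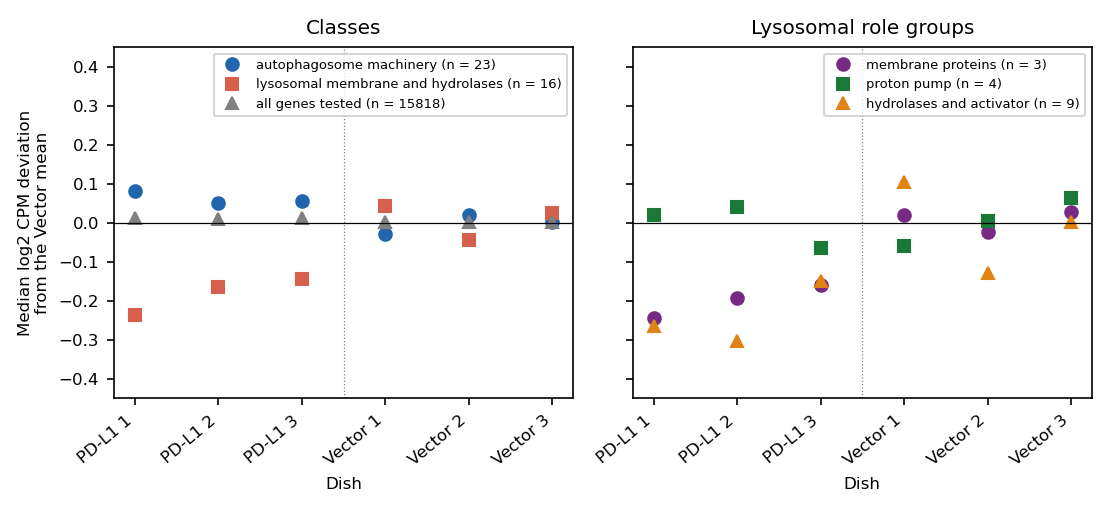
Median deviation of log2 CPM from the Vector mean (vertical axis) in each dish (horizontal axis), for the classes and all genes tested (left) and for the lysosomal role groups (right). The lysosomal class lies between -0.24 and -0.15 in PD-L1 dishes, while the proton pump genes lie on both sides of 0 in either group.

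In the autophagosome machinery the genes were described by role. RB1CC1 (FIP200), the scaffold of the initiation kinase complex, had 104.5, 100.5 and 81.0 CPM in PD-L1 dishes and 70.6, 81.7 and 80.1 CPM in Vector dishes. PD-L1 dish 3 lay within the Vector range and the other PD-L1 dishes above it (log2 fold change 0.30 ± 0.10, adjusted p = 0.0784). Without PD-L1 dish 3 it was called higher (log2 fold change 0.40, adjusted p = 3.72e-04), and the other fits that drop 1 dish did not call it, with adjusted p up to 0.320. The kinases ULK1 and ULK2 and the adaptor ATG13 had log2 fold changes of 0.05, -0.05 and 0.04.

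The lipid kinase complex showed little difference. BECN1, its regulatory subunit, had 49.6, 45.2 and 47.9 CPM in PD-L1 dishes and 42.3, 45.8 and 48.5 CPM in Vector dishes (log2 fold change 0.07 ± 0.08, adjusted p = 0.679). The catalytic subunit PIK3C3, ATG14 and UVRAG had log2 fold changes of 0.07, 0.07 and 0.11. PIK3C3 dishes did not overlap between groups, with 34.5 ± 0.24 CPM in PD-L1 dishes and 32.8 ± 1.99 CPM in Vector dishes, a gap within the SD of the Vector dishes.

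ATG9A, the scramblase that brings membrane to the forming autophagosome, had 75.3, 83.1 and 77.9 CPM in PD-L1 dishes and 103.5, 84.0 and 100.8 CPM in Vector dishes. The groups were separated by less than 1 CPM between PD-L1 dish 2 and Vector dish 2 (log2 fold change -0.29 ± 0.09, adjusted p = 0.0610). Of the 6 fits that drop 1 dish, 2 called ATG9A, those without PD-L1 dish 3 (adjusted p = 0.0230) and without Vector dish 2 (0.0208), and the others reached 0.269. With the offset for GC and length its log2 fold change was -0.15 (adjusted p = 0.153). WIPI1, a phosphoinositide-binding protein, was low and higher in PD-L1 dishes without overlap, at 5.87 ± 0.43 CPM against 4.66 ± 0.62 CPM in Vector dishes (adjusted p = 0.217). Its relative WIPI2, the most abundant of this role, had 97.7, 96.8 and 101.2 CPM in PD-L1 dishes and 101.8, 98.2 and 92.4 CPM in Vector dishes (log2 fold change 0.02 ± 0.07). The lipid transfer protein ATG2A had a log2 fold change of -0.08.

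The 6 conjugation genes had log2 fold changes between -0.14 (ATG16L1) and 0.14 (ATG5). ATG3, the E2-like enzyme, had 72.6, 60.0 and 65.6 CPM in PD-L1 dishes and 59.6, 67.7 and 63.0 CPM in Vector dishes (adjusted p = 0.722). ATG5, the conjugation partner of ATG12, did not overlap between groups, at 44.4 ± 1.25 CPM in PD-L1 dishes and 40.5 ± 2.35 CPM in Vector dishes (adjusted p = 0.335). The protease ATG4B, the E1-like enzyme ATG7 and the ubiquitin-like ATG12 had log2 fold changes of -0.07, -0.04 and 0.13.

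All 4 ATG8 genes had positive log2 fold changes, and 0 passed; GABARAPL2 turned to -0.02 with the offset for GC and length and without PD-L1 dish 3. GABARAPL1 had 52.0, 56.4 and 58.1 CPM in PD-L1 dishes and 49.8, 47.8 and 48.6 CPM in Vector dishes, without overlap (log2 fold change 0.19 ± 0.08, adjusted p = 0.165). GABARAPL2 had 84.9, 81.8 and 94.1 CPM in PD-L1 dishes and 75.9, 88.1 and 78.8 CPM in Vector dishes (adjusted p = 0.492). MAP1LC3B (LC3B), the usual marker of autophagosomes, averaged 80.3 ± 2.45 CPM in PD-L1 dishes and 76.0 ± 5.26 CPM in Vector dishes (log2 fold change 0.08 ± 0.08, adjusted p = 0.573). GABARAP was close to the detection limit, at 0.93 ± 0.15 CPM in PD-L1 dishes and 0.80 ± 0.22 CPM in Vector dishes, where 3 reads correspond to 0.138 to 0.185 CPM. In GENCODE 29 GABARAP and HEXA each lie inside a longer protein-coding gene on the same strand, ENSG00000262526 and ENSG00000260729, which had 0 and 2 reads over 6 dishes. CTSD, MCOLN1 and ATG9A also overlap protein-coding genes on the same strand. Of these, ENSG00000250644 beside CTSD and ENSG00000268614 beside MCOLN1 had 0 reads. MCOLN1 also overlaps PNPLA6 on the same strand. Reads of PNPLA6 and of the gene beside ATG9A were not examined. Reads shared by overlapping genes can go uncounted, and no source used here states the counting settings. The low levels of GABARAP and HEXA are therefore uncertain, and those of CTSD, MCOLN1 and ATG9A carry the same limit. MAP1LC3B and GABARAPL1 have near-identical copies, MAP1LC3B2 and GABARAPL3, with 1 and 8 reads in all.

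SQSTM1 (p62), the cargo receptor that links ubiquitinated proteins to ATG8 proteins, had 198.1, 205.4 and 234.5 CPM in PD-L1 dishes and 242.4, 245.5 and 233.3 CPM in Vector dishes. PD-L1 dish 3 lay within the Vector range, and the log2 fold change was -0.18 ± 0.08 (adjusted p = 0.190). Without PD-L1 dish 3 SQSTM1 was called lower, with an adjusted p of 0.00619, and in the other fits that drop 1 dish its adjusted p reached 0.558. The standard errors of the 23 genes had a median of 0.085 on the log2 scale and reached 0.32 for GABARAP, so small differences were not detectable.

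TFE3 had 72.9, 77.2 and 86.1 CPM in PD-L1 dishes and 99.8, 86.7 and 92.0 CPM in Vector dishes. The groups did not overlap, and the log2 fold change was -0.24 ± 0.09 (adjusted p = 0.104). Its adjusted p was 0.00433 without PD-L1 dish 3 and reached 0.383 when another dish was dropped. TFEB was lower in abundance, at 10.7 ± 1.71 CPM in PD-L1 dishes and 12.3 ± 0.70 CPM in Vector dishes (log2 fold change -0.20 ± 0.13, adjusted p = 0.372). Their activity is known to be set largely by phosphorylation and nuclear entry, which were not measured.

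Among all 41 genes, dishes of the groups did not overlap in 11 lower and 4 higher genes. Over all genes tested, 15.5% were lower and 12.1% higher without overlap. Of the 11 lower genes 9 were lysosomal, with ATG9A and TFE3 as the others, and the 4 higher genes were PIK3C3, WIPI1, ATG5 and GABARAPL1, all of the autophagosome machinery.

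Fold changes moved with base composition. Over the 41 genes the Spearman correlation of log2 fold change with GC content of the longest transcript was -0.646, and over 15436 tested genes -0.287, where the points share the same 6 libraries. Within the classes it was -0.432 over the 16 lysosomal and -0.599 over the 23 autophagosome genes. The median GC content was 53.7% in the lysosomal and 48.5% in the autophagosome genes. With GC and length offset, a correction of each dish for GC content and transcript length, 4 lysosomal genes were lower (LAMP1, CTSD, CTSL and PSAP) and 3 autophagosome genes were higher (ULK1, RB1CC1 and GABARAPL1), against 8.45% lower and 5.57% higher over all genes, 14.0% in all. CTSA was not called there, at a log2 fold change of -0.15 against -0.28 without the offset (adjusted p = 0.147). CTSB was not called either, though its value moved little, to -0.55 against -0.61 (adjusted p = 0.125). The lysosomal median was -0.08 and the autophagosome median 0.08 in that fit, and the GC correlation over the 41 genes was -0.263. Without PD-L1 dish 3 and without the offset, 6 lysosomal genes were lower, and in the other classes RB1CC1 was higher and ATG9A, SQSTM1 and TFE3 lower, against 13.8% lower and 7.81% higher over all genes, 21.6% in all. The number called among the 41 was 2 when PD-L1 dish 1 or 2 was dropped, 10 for PD-L1 dish 3, 1 for Vector dish 1 and 3 for Vector dish 3.

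Levels between genes were compared per kilobase of the longest GENCODE transcript. PSAP and CTSB were the highest, at 157 and 101 CPM per kb in PD-L1 dishes and 195 and 153 CPM per kb in Vector dishes, and SQSTM1 followed with 71.2 and 80.5 CPM per kb in PD-L1 and Vector dishes. CTSL was at 60.4 CPM per kb in PD-L1 dishes and 71.3 CPM per kb in Vector dishes. The lowest were HEXA, ULK2 and GABARAP, each under 1 CPM per kb in both groups. With the median transcript length in place of the longest, CTSB was above PSAP in Vector dishes, at 1020 and 440 CPM per kb, and 40 of the 41 levels moved beyond their SD. By that length ULK2, at 7.56 CPM per kb in PD-L1 dishes, was not among the lowest 3, and CTSL, at 134 CPM per kb, lay below ATP6AP1, at 239 CPM per kb, so the order of levels rests on the length used.

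**Figure D5:**
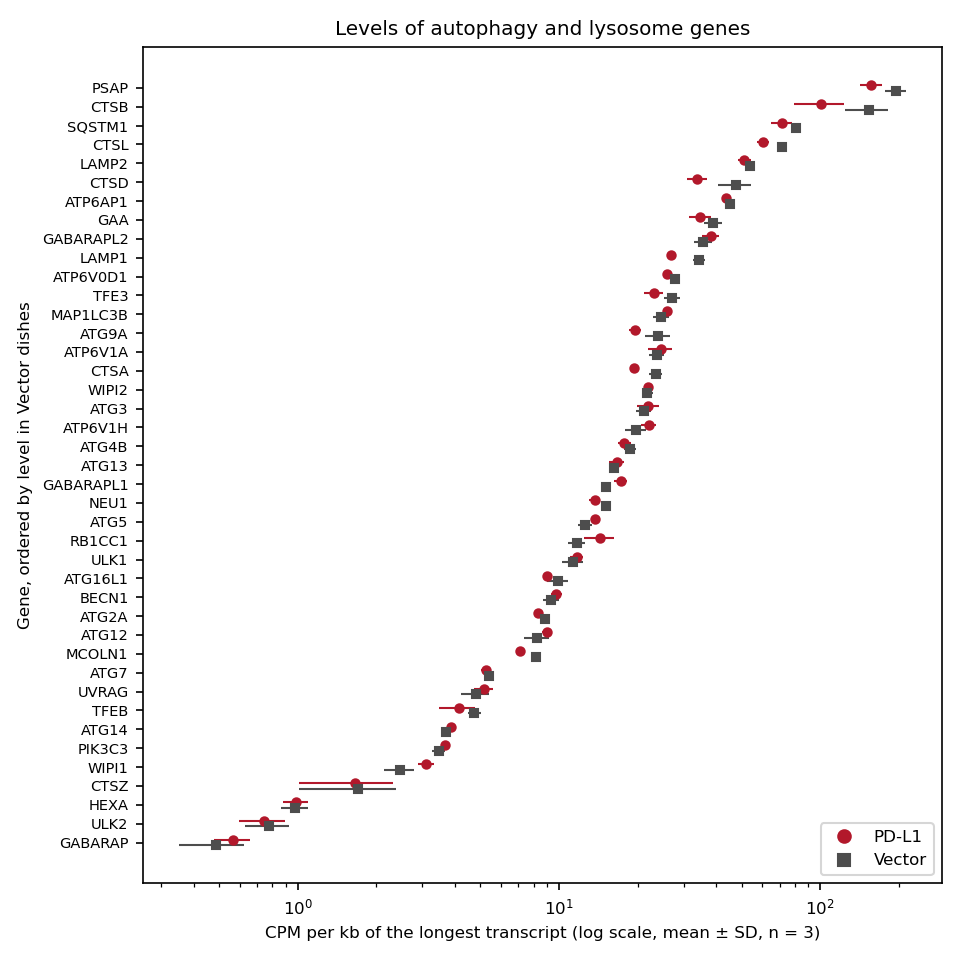
Mean level per kilobase of the longest transcript (horizontal axis, log scale, CPM per kb, bars of 1 SD, n = 3) for each gene (vertical axis, ordered by the Vector level), PD-L1 in red circles above Vector in grey squares. PSAP and CTSB are at the top with 157 and 101 CPM per kb in PD-L1 dishes, and GABARAP at the bottom.

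Further genes of the pathway were read from the same test in 4 lists. Other lysosomal genes gave 6 lower (11.8%) and 0 higher calls among 51 tested, beside 7.2% lower and 1.55% higher over all genes, and their median log2 fold change was -0.12. Dropping 1 dish moved the 6 calls to between 2 (without PD-L1 dish 1 or Vector dish 1) and 11 (without PD-L1 dish 3). CTSC, the dipeptidyl peptidase that activates serine proteases, was at 101 ± 7.21 CPM in PD-L1 dishes and 135 ± 5.33 CPM in Vector dishes (log2 fold change -0.41 ± 0.08, adjusted p = 0.00462). NPC2, which carries cholesterol inside the lysosome, had 45.5, 46.2 and 56.2 CPM in PD-L1 dishes and 84.8, 73.6 and 62.5 CPM in Vector dishes (log2 fold change -0.58 ± 0.11, adjusted p = 0.00618). Both were called in all 17 alternative fits, but not beyond 1.2-fold, where 0 genes of these lists were called. The acid sphingomyelinase SMPD1, the sulfatase GALNS, the acid phosphatase ACP2 and PLBD2 had log2 fold changes of -0.53, -0.46, -0.37 and -0.45, and kept their calls in 4, 3, 2 and 3 of the 6 fits that leave out 1 dish. SMPD1 lost its call without PD-L1 dish 1 (adjusted p = 0.0615) or Vector dish 1 (0.0855), and GALNS, ACP2 and PLBD2 lost theirs without either of these dishes too, with adjusted p from 0.0627 to 0.144. Without Vector dish 3 the last 3 genes had adjusted p of 0.0527, 0.0542 and 0.0996, and ACP2 had 0.0887 without PD-L1 dish 2.

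In the list of other autophagy genes 1 of 33 tested members rose and 1 fell, 3.03% each way beside 1.55% higher and 7.2% lower over all genes, with a median of 0.03 (-0.01 without PD-L1 dish 3). VAMP8, a SNARE protein of autophagosome-lysosome fusion, was at 32.1 ± 2.70 CPM in PD-L1 dishes and 25.6 ± 1.14 CPM in Vector dishes (log2 fold change 0.33 ± 0.09, adjusted p = 0.0417). It kept the call in 1 of the 6 fits that leave out 1 dish, the one without PD-L1 dish 3, and had adjusted p up to 0.173 without the others. MAP1LC3A, a low-level relative of MAP1LC3B, was at 1.18 ± 0.11 CPM in PD-L1 dishes and 2.29 ± 0.25 CPM in Vector dishes (log2 fold change -0.97 ± 0.23, adjusted p = 0.0168). Dropping PD-L1 dish 1, PD-L1 dish 2 or Vector dish 1 gave MAP1LC3A adjusted p of 0.0867, 0.0575 or 0.0899. In the list of other proton pump genes 0 of 18 passed by edgeR and 2 had an unadjusted p under 0.05, beside 3735 of 15818 over all genes. The median of this list was 0.02, which turned to -0.07 without PD-L1 dish 3. The most abundant were ATP6V0B and ATP6V1E1, at 240.9 ± 29.5 and 183.2 ± 12.6 CPM in PD-L1 dishes and 241.2 ± 14.5 and 179.7 ± 8.57 CPM in Vector dishes. Of 27 regulators, among them mTORC1, Rag and AMPK genes, RPTOR, the mTORC1 scaffold raptor, fell (log2 fold change -0.34 ± 0.09, adjusted p = 0.0407) and 0 rose, so that 3.7% were lower beside 7.2% over all genes, with a median of 0.09. The adjusted p of RPTOR was 0.193 and 0.0614 when PD-L1 dish 1 or 2 was dropped, and 0.217 and 0.102 when Vector dish 1 or 3 was dropped. With the offset for GC and length RPTOR had a log2 fold change of -0.16 and lost its call (adjusted p = 0.0910), as it did with upper-quartile scaling (0.0528) and the 5 CPM filter (0.0556).

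Myeloid cells are rich in lysosomal transcripts, so their markers were read beside these results. The 5 myeloid markers summed to 1.66 to 2.15 CPM in PD-L1 dishes and 2.88 to 3.87 CPM in Vector dishes, and none was at 0 in all dishes. PTPRC, the pan-leukocyte marker, was at 0.42 ± 0.14 CPM in PD-L1 dishes and 0.40 ± 0.18 CPM in Vector dishes. CD14 and ITGAM were below 1 CPM in both groups, and CSF1R was at 0.76 ± 0.23 CPM in PD-L1 dishes and 1.6 ± 0.46 CPM in Vector dishes. AIF1 was at 0.09 ± 0.10 CPM in PD-L1 dishes and 0.72 ± 0.14 CPM in Vector dishes. These were 4, 1 and 0 reads in PD-L1 dishes and 14, 18 and 12 reads in Vector dishes. AIF1 passed the low-count filter only through the Vector dishes, and its PD-L1 reads were near the detection limit. Its difference is therefore not read as a result. The 13 mitochondrially encoded protein transcripts took 2.12 to 2.44% of counts in PD-L1 dishes and 2.32 to 2.64% in Vector dishes, and the part of these and the other markers in the lysosomal result was not tested. Other cell type markers moved in differing directions. The oligodendrocyte markers summed to 5.03 to 5.9 CPM in PD-L1 dishes and 7.55 to 9.29 CPM in Vector dishes, and MBP, a myelin protein, fell (log2 fold change -0.59, adjusted p = 0.0204). GFAP fell as well (log2 fold change -0.91, adjusted p = 0.0166). The other astroglial markers tested were not called, with log2 fold changes of 0.12 for GLUL, 0.08 for SLC1A3 and -0.50 for S100B. The endothelial marker CDH5 had a log2 fold change of 0.71 (adjusted p = 0.151). Neuronal markers summed to 9.9 to 12.0 CPM in PD-L1 dishes and 10.3 to 11.6 CPM in Vector dishes. The mesenchymal glioma markers CD44, VIM and NES also fell, summing to 434 to 568 CPM in PD-L1 dishes and 830 to 956 CPM in Vector dishes. All dishes were cultures of the U251 line, so these markers do not count cells of other types. In bulk RNA, a change in some U251 cells and a change in all of them cannot be told apart.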

How the data were processed

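Poly-A RNA of 6 dishes was sequenced, 3 PD-L1 and 3 Vector, with 3 µg of total RNA per library. HTSeq 0.6.0, STAR 2.5.1b, CASAVA 1.8 and build hg19 are named, per the submitters' processing notes; annotation and counting settings: not given in the sources used here. Raw counts, whole numbers by Ensembl ID, were deposited by the authors. Their second deposited table holds a normalized signal, the count over 1 factor per dish (spread at most 9.7e-08%), used only for those factors. Gene symbols were looked up in a name table (51996 IDs) and GENCODE 29 (342 more), and PECAM1 of the marker lists had no match and was not used here. Raw counts were tested in R 4.3.3 with edgeR 4.0.16 (filterByExpr, TMM, robust quasi-likelihood F test, no covariates, Benjamini-Hochberg FDR under 0.05 over all genes). A positive log2 fold change means higher in PD-L1, its SE came from the F statistic, and CPM are TMM-scaled. Alternatives used DESeq2 1.42.0, limma 3.58.1, other scalings and filters, a replicate block, each dish left out, and per-dish correction of GC and length (splines with 5 degrees of freedom, GC known for 97.6% of tested genes). Promoters are RefSeq sequences on GRCh38.p14, and coordinates come from that table, not from the authors' build. Depth was 15678989 to 22270509 counts per dish, and intervals for counting error alone are not given. Same-numbered dishes did not deviate together, so numbers were not used as pairs. Members, lists and tests were chosen with earlier results of these data known. All 41 members could be named; those past the FDR, those without overlap and the most abundant of each remaining role were given in most detail, with at most 6 called genes of each further list. No sequence is printed for genes without a window. Figures were drawn with Python 3.11.15 and matplotlib 3.10.9.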

Additional observations from a re-analysis of the deposited data

How the results depend on the processing

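The count of genes changed, 1384, became 443 beyond a 1.2-fold change, 530 at an FDR of 0.01, 2217 with the GC and length offset, 3523 with that offset and without PD-L1 replicate 3, and 545 to 3512 with each dish left out. Of the 41 members 5 were called, against 3 with upper-quartile scaling, 8 with no low-count filter, 0 beyond a 1.2-fold change, 8 with the offset and without PD-L1 replicate 3, 1 at an FDR of 0.01, and 1 to 10 with each dish left out. With the replicate block 3 members were called, CTSA (adjusted p = 0.121) and PSAP (0.0750) losing their calls, and 2 with block and offset; same-numbered dishes had correlated deviations of -0.212, -0.0512 and -0.192, so they share only a number. The 9 calls in the further lists became 14 with no filter, 0 beyond 1.2-fold, 20 with the offset, 32 with the offset and without PD-L1 replicate 3, 2 at an FDR of 0.01, and 2 to 26 with each dish left out. These lists held 33, 51, 18 and 27 tested genes. Over all genes tested, 8.75% were called, 14.0% with the offset and 21.6% without PD-L1 replicate 3, and no filter gave 1904 calls. The autophagosome median log2 fold change of 0.0652 became 0.0984 with upper-quartile scaling and 0.0264 to 0.0873 with each dish left out. The lysosomal median of -0.154 became -0.0831 with the offset, -0.0827 with offset and block, -0.103 with the offset and without PD-L1 replicate 3, and -0.22 to -0.099 with each dish left out. The cause was not tested. CD274 kept its call in all 17 alternatives, as did LAMP1, CTSC and NPC2; the test beyond 1.2-fold and the FDR of 0.01 are not among these 17.

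Reversals were all in genes without a call. With the offset, log2 fold changes became 0.007683 for ULK2, 0.1263 for ATG2A, -0.01522 for ATG3, 0.06812 for ATG4B, 0.02062 for ATG7, 0.01112 for ATP6V0D1, 0.03122 for ATP6AP1, 0.008822 for CTSZ, 0.06186 for ATP6V0B, -0.01516 for ATP6V1E1. With offset and block they became 0.1262 for ATG2A, -0.01857 for ATG3, 0.0675 for ATG4B, 0.01924 for ATG7, 0.01142 for ATP6V0D1, 0.032 for ATP6AP1, 0.004878 for CTSZ, 0.06249 for ATP6V0B, -0.01588 for ATP6V1E1. With the offset and without PD-L1 replicate 3 they became -0.01196 for PIK3C3, 0.1686 for ATG2A, -0.01765 for ATG3, 0.08776 for ATG4B, -0.0182 for GABARAPL2, 0.03381 for ATP6V0D1, 0.04959 for ATP6AP1, 0.01007 for GAA, 0.013 for ATP6V0B, -0.03951 for ATP6V1E1. With no low-count filter they became -0.00188 for WIPI2, -0.008762 for HEXA. ATP6V0B became 0.03072 with upper-quartile scaling and 0.005862 with the 5 CPM filter. With each dish left out, signs changed in ULK1 (-0.03165 to 0.094), ULK2 (-0.2299 to 0.09499), WIPI2 (-0.03346 to 0.04788), ATG3 (-0.01298 to 0.1279), GABARAP (-5.837e-05 to 0.3979), ATP6V1A (-0.008031 to 0.125), CTSZ (-0.413 to 0.3492), HEXA (-0.08546 to 0.05988), ATP6V0B (-0.1087 to 0.05722), ATP6V1E1 (-0.009545 to 0.08652). Depth was 15678989 to 22270509 counts per dish, and 3 reads were 0.138 to 0.185 CPM, which limits GABARAP most.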
